A study of Mus musculus with 3 samples.

Results

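Collagens, laminins, nidogens, perlecan, fibronectin, fibulins and fibrillins, the integrins that bind them and the proteases and inhibitors that act on them were examined in mouse neural retina at postnatal day 10. Members were the non-control probe sets whose only gene symbol belongs to these families, chosen by name and not by signal. This gave 145 of 12422 probe sets, which stand for 100 of 8251 named genes. The signals come from Affymetrix U74Av2 oligonucleotide arrays, on which a probe set is a group of short probes against 1 transcript or a few related ones. Each of the 3 samples was total RNA from pooled neural retinas of 3 to 4 wild-type mice with a mixed 129/SvEv and C57BL/6 background, collected from 1 to 2 pm. These animals were littermates of Rp1-/- mice, which are not analysed here. Rp1 appears in the titles of pools 2 and 3 only, although all 3 descriptions say wild type. All samples form 1 group, so no comparison between groups was possible, and values are given as mean ± SD over the pools.

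Extracellular matrix gives tissue its scaffold. Basement membranes are sheets of laminin and collagen IV joined by nidogen and perlecan, and in the eye they form the inner limiting membrane of the retina, the sleeve of each vessel, Bruch's membrane and the lens capsule. Integrins are receptors of an alpha and a beta subunit that tie cells to this scaffold. Matrix metalloproteinases (MMPs) and ADAM proteases cut matrix and cell surface proteins, and tissue inhibitors of metalloproteinases (TIMPs) restrain them. Mouse retinal vessels are still growing into deeper layers at this age.

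A signal was called above background when it exceeded a limit set on each array, the 90th percentile of 69 probe sets for 54 genes of other organs such as liver, pancreas and muscle. These limits were 294.0, 499.8 and 344.3 for arrays 1, 2 and 3, so with them the call was hardest to reach in pool 2. That order of the arrays depends on the sets used and changed under another limit, given in the last section. Over all non-control probe sets the median signal was 234.6, 254.3 and 243.4. All 10 measured genes of the rod list exceeded the limit on every array, which fits the labelled tissue. In pooled tissue, fewer cells of a type and less RNA per cell cannot be told apart. Lens genes differed widely between the pools. On the brightest set of each of the 12 measured genes, pool 2 had the lowest signal and pool 3 the highest, with sums of 226920, 36746 and 423789 in pools 1, 2 and 3. Some further sets of these genes gave another order, among them a Crybb2 set with the _r_at suffix, above the limit throughout, at 1203, 1333 and 929.8. Members with a wide range and the pool order are therefore also given without pool 2 or pool 3.

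Few members exceeded the limit. On all 3 arrays 18 of 145 probe sets (12.4%) did so, against 29.8% of all probe sets. On no array did 98 members (67.6%), against 52.6% of all, and the other 29 did so on 1 or 2 arrays. The members above the limit numbered 36 on array 1 (24.8%), 18 on array 2 (12.4%) and 38 on array 3 (26.2%). Of all probe sets, 44.4%, 31.2% and 40.6% exceeded the limits of arrays 1, 2 and 3, so array 2 was lowest for all sets too. By gene, 17 of 100 had a probe set above background on all arrays, 21 on some and 62 on none. The same count over all named genes was not made. Counts by gene, here and by role below, therefore only describe the members. The 98 dim sets had signals from 3.5 to 425.4, with a median of 85.2 for their means. Not above background does not mean silent, because a probe set can bind its transcript poorly.

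**Figure D1:**
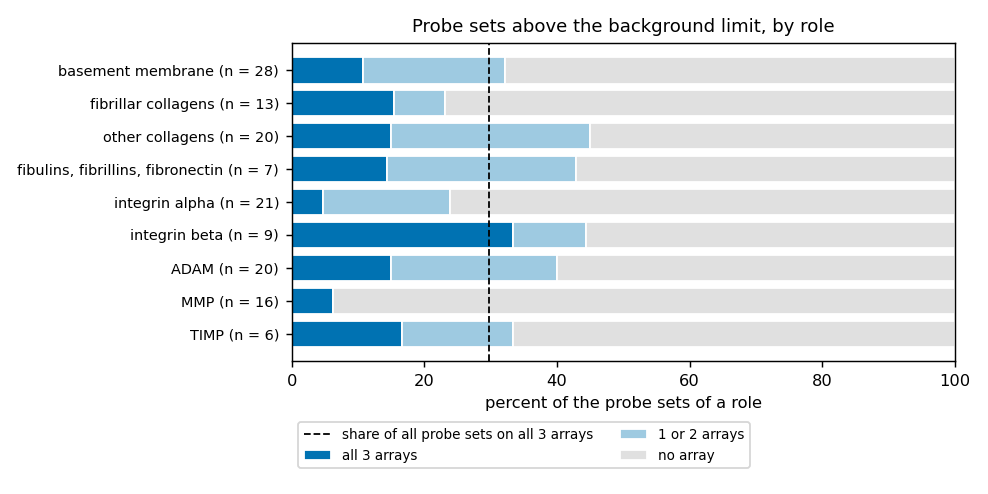
Percent of member probe sets (x axis) above the background limit on all 3 arrays, on 1 or 2, or on none, for 9 roles (n probe sets beside each name). The dashed line is the 29.8% of all probe sets above the limit on all arrays. The bar of the integrin beta subunits reaches past it, with 3 of 9 sets, that of the integrin alpha subunits is the shortest, with 1 of 21, and the MMPs follow with 1 of 16.

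Collagen IV of the alpha-1 and alpha-2 chains had the widest spread of the basement membrane genes above background on all arrays. These were Col4a1, Col4a2 and Col18a1, 3 of 19 genes. Col4a1 had signals of 1170.0, 862.3 and 2626 in pools 1, 2 and 3. Col4a2, whose product joins that of Col4a1 in the common collagen IV trimer, had signals of 1302, 764.8 and 3557. Both genes ordered the pools as 2, 1, 3 from low to high, and in both the value of pool 3 stood far from the other pools. The range was 3.05-fold for Col4a1 and 4.65-fold for Col4a2. Among the 3703 probe sets above background on all arrays, the range of Col4a2 had rank 14 from the widest and that of Col4a1 rank 37. Without pool 3 the range was 1.36-fold for Col4a1 and 1.70-fold for Col4a2, with pool 1 still above pool 2 in both.

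The other 3 collagen IV chains measured were not above background on any array. Col4a3 read 8.9, 48.7 and 16.5 in pools 1, 2 and 3, and Col4a4 read 18.9, 29.4 and 40.5. These chains build the tougher network of the kidney glomerulus together with the product of Col4a5, which read 26.8, 40.8 and 189.2. Collagen IV signal above background thus came, among the chains measured, from those found in most basement membranes.

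Col4a1 and Col4a2 lie head to head, and their promoters are shown because the 2 genes ordered the pools alike with the widest ranges of any member above background on all arrays. The windows run from 250 bases before to 50 bases after the annotated start and come from RefSeq (GRCm38.p6). Col4a1 is at chr8:11312777-11313076 on the minus strand and Col4a2 at chr8:11312555-11312854 on the plus strand. Itgb5, at chr16:33829415-33829714 on the plus strand, is shown beside them as a member on another chromosome with the same order of pools. Capitals mark a GC box core (GGGCGG) or a CCAAT box (CCAAT), read on either strand.
Col4a1: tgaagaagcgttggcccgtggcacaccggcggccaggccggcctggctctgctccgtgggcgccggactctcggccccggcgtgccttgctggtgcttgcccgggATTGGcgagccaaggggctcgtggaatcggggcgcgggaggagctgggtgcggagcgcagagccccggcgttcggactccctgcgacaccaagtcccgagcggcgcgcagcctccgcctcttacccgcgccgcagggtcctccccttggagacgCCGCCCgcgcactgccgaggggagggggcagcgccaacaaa
Col4a2: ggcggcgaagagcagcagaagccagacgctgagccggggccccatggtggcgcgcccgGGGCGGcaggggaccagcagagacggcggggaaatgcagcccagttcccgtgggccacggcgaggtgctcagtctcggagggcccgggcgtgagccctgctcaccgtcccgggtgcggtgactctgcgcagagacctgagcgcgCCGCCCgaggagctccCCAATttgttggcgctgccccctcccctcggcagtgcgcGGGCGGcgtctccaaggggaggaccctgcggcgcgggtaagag
Itgb5: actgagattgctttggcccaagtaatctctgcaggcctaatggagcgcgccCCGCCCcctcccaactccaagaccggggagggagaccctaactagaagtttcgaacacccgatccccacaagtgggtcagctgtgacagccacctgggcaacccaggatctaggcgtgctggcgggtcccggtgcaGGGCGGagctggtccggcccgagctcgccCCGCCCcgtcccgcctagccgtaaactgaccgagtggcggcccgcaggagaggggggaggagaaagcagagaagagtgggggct

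The annotated starts of Col4a1 and Col4a2 are 21 bases apart, and the windows share 78 bases, which are reverse complements of each other. A GC box core lies in the shared stretch and appears in both windows, as CCGCCC in that of Col4a1 and as GGGCGG in that of Col4a2. It lies after the annotated start of both genes, at bases 10 to 15 of Col4a1 and 8 to 13 of Col4a2. Each window also holds a CCAAT box, at different positions, and that of Col4a2 holds 2 further GC box cores. The Itgb5 window holds 3 GC box cores. None of the 3 windows has a TATA box core (TATAAA) or an AP-1 element (TGANTCA), the site of many genes induced with matrix remodelling. The G and C content was 74% for Col4a1, 73.7% for Col4a2 and 65.7% for Itgb5, against a median of 52.7% over all 32851 windows.

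Promoter windows were matched for 64 of the 100 member genes, 74 windows in all. A GC box core was present in 41 of the 74 (55.4%), against 35.7% of all windows. The CCAAT box was found in 23 (31.1%) against 37.4%, the TATA box core in 12 (16.2%) against 13.6%, and the AP-1 element in 9 (12.2%) against 7.81%. The motifs do not overlap each other in the 3 windows printed. The median G and C content was 59.2% in member windows and 52.7% in all. Such matches describe letters only.

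Markers of other cells that make collagen IV moved between the pools too. The lens is enclosed by a capsule rich in collagen IV, and the lens genes, by the brightest set of each, had a median difference from the mean of the 3 pools of 0.50 in pool 1, -1.96 in pool 2 and 1.35 in pool 3 on the log2 scale. Cryaa, the alpha-A crystallin of the lens, had signals of 30501, 4703 and 76094 in pools 1, 2 and 3. The ratio of pool 3 to pool 1 was 2.24 for Col4a1, 2.73 for Col4a2, 2.49 for Cryaa and 5.14 for Crygs, another crystallin. Over the lens list this ratio varied, and it was 4.90 for the brightest Crybb2 set and 2.52 for Mip. Cryge and Crygb rose less than the collagen IV genes, from 63596.4 to 79323.1 and from 16263.5 to 21602.6 on their brightest sets. The ratio of pool 1 to pool 2 was 1.36 for Col4a1 and 1.70 for Col4a2, against 6.49 for Cryaa and 6.77 for Crygs. So Col4a1 and Col4a2 ordered the pools as Cryaa and Crygs did, with unlike ratios between pools 1 and 2. The _r_at set of Crybb2 went the other way, with a ratio of pool 3 to pool 1 of 0.77.

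Vessel and connective tissue markers had smaller differences than the lens genes. Their medians in pool 3 were 0.36 for endothelial and mural genes and 0.54 for fibroblast, sclera and choroid genes on the log2 scale. The 14 measured endothelial and mural genes summed to 3404, 3152 and 4960 in pools 1, 2 and 3, with the brightest set of each gene, as in all such sums. On all arrays 1 of them exceeded the limit, on some 3 and on none 10. Cldn5, a tight junction protein of endothelium, read 531.9, 386.4 and 834.4 in pools 1, 2 and 3, below the limit in pool 2. Endothelial Eng read 611.4, 387.9 and 708.6, likewise below the limit in pool 2. Kdr, a VEGF receptor and the endothelial gene above background throughout, read 727.7, 854.2 and 1143, so its lowest pool was pool 1. Endothelial Cdh5, Tie1, Tek and Vwf were above background in no pool. The 11 fibroblast, sclera and choroid genes summed to 3628, 3278 and 4248, and 2 exceeded the limit throughout while 7 did so nowhere, Dcn and Lum among these. The 2 were Thy1, at 1760, 1396 and 1829, the largest part of each sum, and Bgn. The Bgn values were 615.4, 600.7 and 393.5 on an _f_at set, lowest in pool 3. Whether the Thy1 signal came from connective tissue was not tested. Müller glia genes, of which 7 of 9 were above background on all arrays, summed to 21357, 21220 and 31529. As a measure of RNA integrity, the 3′ over 5′ control ratio was 1.20, 1.44 and 1.69 for Actb and 0.95, 0.88 and 0.93 for Gapdh. No measured marker was at 0. The part of lens, vessel, glial or connective tissue RNA, or of RNA quality, in the collagen IV values was not tested.

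Most other basement membrane genes were dim. Col18a1, which encodes the collagen that carries endostatin, read 901.2, 895.4 and 1335.5 in pools 1, 2 and 3 on its bright set, a mean of 1044 ± 252 (SD, n = 3). It was highest in pool 3, like the collagen IV genes, with pools 1 and 2 nearly equal. Of its other 4 sets, 2 exceeded the limit only in pool 3, at 438.8 and 511.9, and 2 on no array. Hspg2, which encodes perlecan, read 141.8 and 167.6 in pools 1 and 2, not above background, and 506.7 in pool 3. The Hspg2 signal of pool 3 was thus at least 1.72-fold that of pool 1, the lowest pool. Lama4, the alpha chain of laminins of vessel walls, followed with 291.1, 242.4 and 509.9 and exceeded the limit only in pool 3. The Lama4 signal of pool 3 was at least 1.02-fold that of pool 2, the lowest pool, a bound set by the high limit of array 2, 499.8. In pool 1 Lama4 was just under the limit of 294.0. How much of its spread lies above the limit thus depends on the array.

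No laminin chain was above background on all arrays. Lama1, a chain of the inner limiting membrane, read 176.0, 185.7 and 171.3 and was above background nowhere. Lamc1, the gamma chain shared by most laminins, read 598.8, 486.1 and 404.6 on a set with the _f_at suffix, lowest in pool 3, and was under the limit in pool 2. The plain Lamc1 set read 120.7, 152.5 and 75.9 and exceeded the limit on no array. The _f_at set of Lamb1 read 311.9, 178.7 and 345.0, above the limit in pools 1 and 3, and the plain set read 126.9, 167.2 and 158.4. The genes on no array were Col15a1, Col4a3, Col4a4, Col4a5, Lama1, Lama2, Lama3, Lama5, Lamb2, Lamb3, Nid1 and Nid2, the last pair being the nidogens that link laminin to collagen IV.

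**Figure D2:**
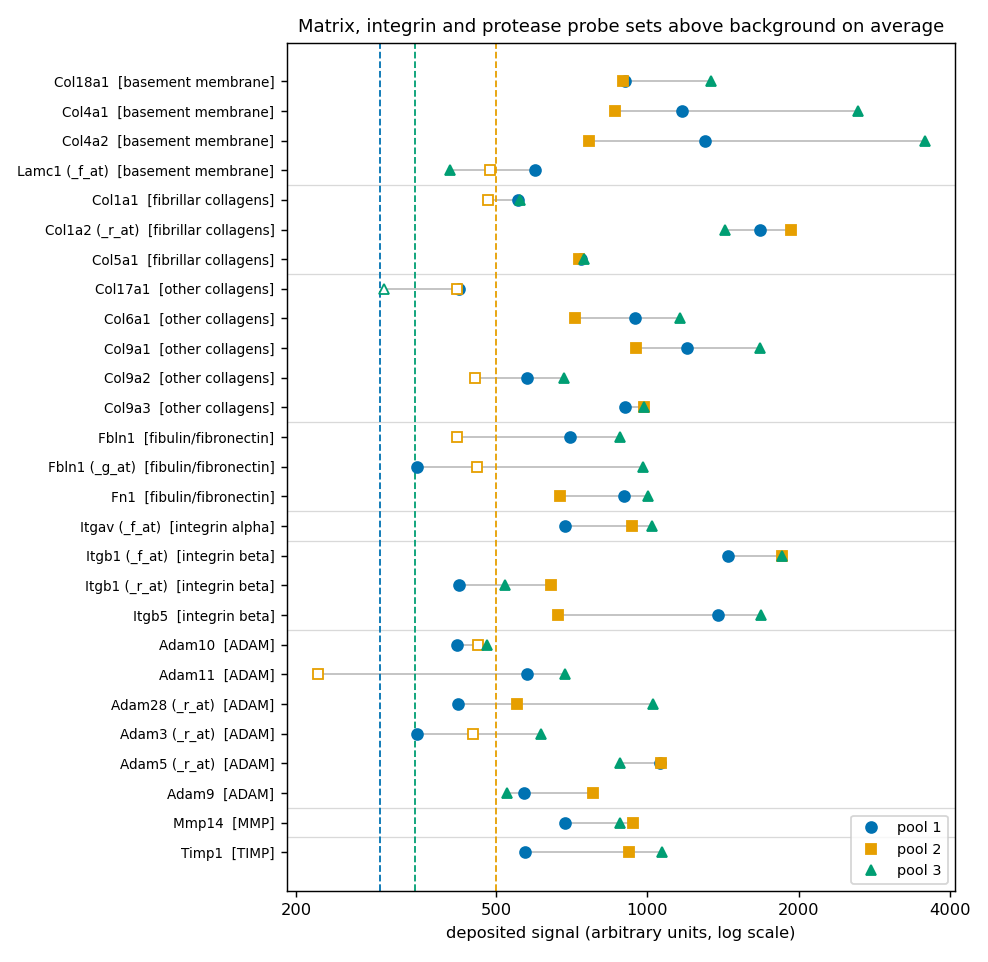
Deposited signal (x axis, arbitrary units, log scale) of the 27 member probe sets above background on average, by role, with 1 marker per pool and a grey line over their range. Dashed lines are the limits of the arrays in the colours of the pools, and open markers lie below their own array's limit. Col4a1 and Col4a2 reach furthest right in pool 3, and the pools of Col5a1 and Col9a3 nearly coincide.

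Among fibrillar collagens, which build the fibres of sclera, skin and bone, 2 of 8 genes exceeded the limit throughout. Col5a1, which nucleates collagen I fibrils, had the member set on which the pools lay closest. This set read 737.9, 729.4 and 748.4 in pools 1, 2 and 3, a mean of 738.6 ± 9.5 (SD, n = 3) and a range of 1.03-fold. The other Col5a1 set read 86.3, 62.5 and 36.3, above the limit in no pool. Col1a2, a chain of collagen I, read 1671, 1926 and 1426 on a set with the _r_at suffix and was lowest in pool 3. Its plain set read 171.0, 59.6 and 39.9, above the limit in no pool. Col1a1, the other chain of collagen I, read 553.0, 481.0 and 558.8 on its brighter set, just under the limit in pool 2. Col3a1, its usual companion in soft tissue, stayed below the limit on all 3 of its sets, at 3.5 to 155.2. Col11a1, Col11a2, Col2a1 and Col5a2 were likewise on no array.

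Collagen IX had every chain above background on average. It coats collagen II fibrils, in cartilage and in the vitreous. Col9a1 read 1198, 947.4 and 1672 in pools 1, 2 and 3, a mean of 1272 ± 368 (SD, n = 3). Col9a2 read 575.2, 453.1 and 682.2 and was below the limit in pool 2. Both had pool 2 at the bottom and pool 3 at the top, the order of Col4a1 and Col4a2. The bright Col9a3 set read 902.2, 983.2 and 986.0, a mean of 957.1 ± 47.6 (SD, n = 3), and did not follow that order. Its range was 1.09-fold, against 1.76-fold for Col9a1. Col2a1, the fibril partner, was above background in no pool, with 16.7, 154.7 and 38.2.

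Collagen VI, which forms beaded filaments around cells, was uneven across its chains. Col6a1 read 944.3, 717.9 and 1158 in pools 1, 2 and 3 on its bright set, above background throughout. Col6a2 read 358.2, 420.6 and 335.0 and exceeded the limit only in pool 1. Col6a3 read 96.4, 137.5 and 374.7, of which the last alone exceeded it. The bright Col6a1 set had the order seen in Col4a1 and Col4a2. Col17a1, an anchor of epithelia, read 422.0, 418.7 and 298.9, and Col7a1, of anchoring fibrils, read 374.2, 446.5 and 98.8. These were above the limit only in pool 1 and lowest in pool 3. Col6a2 and Col7a1 nevertheless had their highest signal in pool 2, and Col17a1 was nearly equal in pools 1 and 2. That none of the 3 was called in pool 2 rests on the higher limit of array 2, 499.8. Col8a1, a collagen of endothelial sheets, read 231.3, 288.7 and 346.8. The others, Col10a1, Col12a1, Col13a1, Col14a1, Col19a1, Col22a1 and Col26a1, were on no array.

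Among the fibronectin, fibulin and fibrillin members, only the genes of fibronectin and fibulin-1 were measurable. Fn1, which encodes fibronectin, a ligand of many integrins, read 896.7, 671.0 and 1004 in pools 1, 2 and 3, a mean of 857.2 ± 170 (SD, n = 3). Pool 2 was again the lowest and pool 3 the highest, within a range of 1.5-fold. The main Fbln1 set read 701.9, 418.9 and 881.8, below the limit in pool 2, so pool 3 exceeded pool 2 by at least 1.76-fold. Another Fbln1 set, with the _g_at suffix, read 348.8, 458.0 and 981.1. Both put pool 3 highest and differ on which pool is lowest. Without pool 3 the range of the _g_at set was 0.39 on the log2 scale, against 1.49 with it, and without pool 2 that of the main set was 0.33, against 1.07. The remaining 2 Fbln1 sets were on no array, as were Fbln2 and Fbn2, at most 203.8 and 273.2.

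Integrin beta-1 and beta-5 and integrin alpha-V were the receptor subunits above background on all arrays. Itgb1, the beta subunit shared by most receptors for collagen, laminin and fibronectin, read 1443, 1853 and 1850 on its _f_at set. Its _r_at set read 422.2, 643.8 and 520.2. Pool 1 was the lowest and pool 2 the highest on both sets. Itgb1 was the only gene with several sets all above background on every array. Itgav, the alpha subunit of vitronectin receptors, read 687.0, 930.3 and 1019 on an _f_at set. The other 2 Itgav sets read 174.3, 193.5 and 158.7, and 300.5, 399.7 and 67.5. The first of these was above background in no pool and the other only in pool 1.

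Itgb5 pairs with the alpha-V subunit and sits on the pigment epithelium and other cells, where it helps take up outer segments. It had signals of 1378, 664.1 and 1679 in pools 1, 2 and 3, a range of 2.53-fold. The value of pool 2 stood apart, and without pool 2 the range was 0.29 on the log2 scale. A further Itgb5 set, with the _f_at suffix, read 273.1, 425.4 and 157.3 on no array above the limit and put the pools in the opposite order. Of the 9 measured pigment epithelium genes, 1 exceeded the limit throughout and 7 nowhere, with summed signals of 1338, 1936 and 2079 in pools 1, 2 and 3. These sums include the dim genes. The gene above the limit throughout, Dct, read 318.7, 596.4 and 604.9. Pmel, below the limit in pool 2 only, read 508.0, 348.2 and 777.1, the pool order of Itgb5. The part of pigment epithelium RNA in the Itgb5 values was not tested.

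The other integrin genes were dim. Of 12 alpha subunits 9 were on no array, Itga2, Itga4, Itga5, Itga6, Itga8, Itgae, Itgal, Itgam and Itgax. Itga6, of laminin receptors, read 92.8, 54.9 and 113.5 in pools 1, 2 and 3. Itga3, another laminin receptor subunit, read 378.9, 392.9 and 225.3 on 1 set and 365.6, 322.8 and 221.0 on the other, with both lowest in pool 3. Itga7 read 234.9, 106.8 and 377.3 on its brightest set. Among beta subunits, Itgb2, Itgb3 and Itgb4 were on no array, and Itgb7 read 257.2, 431.1 and 399.2. The leukocyte subunits Itgal, Itgam, Itgax and Itgb2 reached at most 344.6, although 2 of the 11 microglia and leukocyte genes, Itgam among the 11, were above background on all arrays. That list summed to 3039, 2910 and 2752. Itgb1bp1, which encodes a cytoplasmic partner of the beta-1 subunit and no receptor, read between 276.8 and 408.1 over its 3 sets. Itgb2l was on no array.

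Proteases were mostly below the limit. Of 13 MMP genes, only Mmp14 was above background, and it was so on all arrays. Mmp14, a membrane-bound protease that activates the MMP2 proenzyme, read 685.5, 935.1 and 880.1 in pools 1, 2 and 3, a mean of 833.6 ± 131 (SD, n = 3). It was lowest in pool 1. Mmp2, its substrate, read 71.5, 62.1 and 107.3 on 1 set and 171.8, 110.7 and 16.8 on the other. Mmp9, the other gelatinase, read 52.1, 62.5 and 210.4, and 22.4, 121.7 and 10.7. Both genes were above background in no pool on either set. Mmp10, Mmp11, Mmp12, Mmp13, Mmp16, Mmp17, Mmp24, Mmp3, Mmp7 and Mmp8 were on no array too, and the highest of their signals was 334.0, for Mmp17 in pool 2.

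Timp1 was the inhibitor above background on all arrays. It read 571.3, 919.1 and 1067 in pools 1, 2 and 3, a mean of 852.3 ± 254 (SD, n = 3), lowest in pool 1 by a clear gap. Its _r_at set read 8.7, 74.1 and 87.4, below the limit and in the same order. Timp3, which is held in Bruch's membrane, read 227.3, 257.6 and 470.8 and exceeded the limit only in pool 3. Its signal in pool 3 was thus at least 1.60-fold that of pool 1, the lowest pool. Timp2, which takes part in MMP2 activation by the Mmp14 product, read 280.2, 361.5 and 340.9 on its brightest set, below the limit on each array. The other 2 Timp2 sets stayed at 94.0 or less.

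Of the 16 ADAM genes, 3 were above background on all arrays, Adam9, Adam28 and Adam5. Adam9, a protease of many tissues including retina, read 569.2, 778.6 and 526.7 in pools 1, 2 and 3, a mean of 624.8 ± 135 (SD, n = 3). Adam10, the main sheddase of Notch and of N-cadherin, read 419.0, 460.0 and 479.1 on its brighter set, below the limit only in pool 2. Its other set read 305.4, 432.4 and 194.6. Adam17, the sheddase of TNF, read 258.7, 81.0 and 24.9 and was on no array. Adam11, which lacks protease activity and is made in neurons, read 575.4, 220.9 and 684.8. The signal of pool 2 was below the limit, so that of pool 3 was at least 1.37-fold higher. Without pool 2 its range was 0.25 on the log2 scale, against 1.63 with it. Adam23, a like neuronal protein, read 461.3, 276.8 and 317.3.

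Some ADAM signals came from sets whose letter suffix marks looser probe choice, for genes of the male germ line or epididymis. The _r_at set of Adam5 read 1059, 1065 and 880.5 in pools 1, 2 and 3, while its plain set read 47.4, 36.7 and 19.2. The _r_at set of Adam3 read 348.3, 449.4 and 614.8, while its _f_at set read 13.5, 166.6 and 36.4. Adam2, Adam4 and Adam7, other such genes, were on no array. Adam28, known from lymphocytes and epididymis, has only an _r_at set, which read 419.8, 551.5 and 1024, a range of 2.44-fold with pool 3 apart. That range is 1.29 on the log2 scale and was 0.39 without pool 3. Adam12, Adam15, Adam19, Adam22 and Adam8 were on no array, as was Adamts1, the only ADAMTS gene on the array.

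Probe sets of the same member gene often disagreed. Of 34 member genes with several sets, 10 had a set above background on all arrays, and in 9 of these 10 another set was above it on no array. The exception was Itgb1. This count was not made over all genes with several sets, so the disagreement is not called particular to the members. By suffix, 12 of 106 plain _at sets were above background on all arrays, as were 2 of 17 _f_at sets, which can match several members of a family, and 4 of 11 _r_at sets, for which some rules of probe choice were dropped. Together 6 of 39 lettered member sets (15.4%) passed, against 24.4% of all lettered sets, and 11.3% of plain member sets, against 31.4% of all plain ones. By gene, 12 of the 17 rest on a plain set. Adam28, Adam5, Col1a2, Itgav and Itgb1 rest on lettered sets alone, and their signals are uncertain as to the gene.

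**Figure D3:**
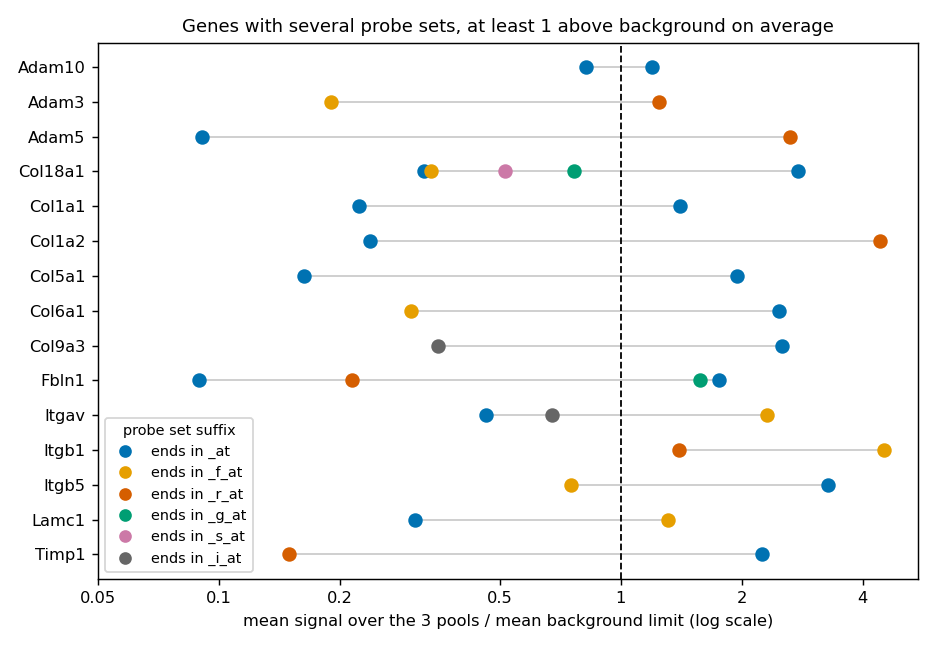
Mean signal over the 3 pools divided by the mean background limit (x axis, log scale, dashed line at 1) of every probe set of the 15 member genes that have several sets and at least 1 above background on average, coloured by suffix. Each row shows how far the sets of 1 gene lie on either side of the limit, and distances between sets are not transcript amounts. Itgb1 is the row with every set right of the line.

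Pool 3 had the highest signal for most of the measurable members. Of the 27 member sets above background on average, a mean signal over the mean limit of 379.4, 19 (70.4%) were highest in pool 3, against 32.2% of all such sets. A mean over the limit can rest on 1 high pool, and of the 18 members above the limit on every array 12 (66.7%) were highest in pool 3, against 30% of all such sets. In pool 2, 12 (44.4%) were lowest, against 34.7%, and 12 (44.4%) had the full order of pool 2, then 1, then 3, against 18.2%. The median log2 difference from the mean of the 3 pools was 0.25 in pool 3, -0.028 in pool 2 and -0.084 in pool 1. Over all 4757 sets above background on average these medians were -0.017, 0.0023 and 0.022. Without pool 2, 30 of 38 members were higher in pool 3 than in pool 1 (78.9%), against 47.5% of all. Without pool 1, 19 of 26 were higher in pool 3 than in pool 2 (73.1%), against 49.2%. Without pool 3, 14 of 28 were higher in pool 1 than in pool 2 (50%), against 51.7%, a share near that of all sets. The members' shift was thus seen between pool 3 and each other pool and not between pools 1 and 2. Other lists were also high in pool 3. Rod genes had a median difference of 0.42 there, with 8 of 10 highest in pool 3, and Müller glia genes one of 0.35, with 6 of 9, on the brightest set of each gene. Endothelial and mural genes had 0.36, with 10 of 14, and fibroblast, sclera and choroid genes 0.54, with 7 of 11, most of them dim. Microglia and leukocyte genes had -0.11, with 4 of 11. The shift is thus not called particular to the matrix families. Members share pools and arrays and are not replicates, and the 3 pools allow no test of this difference.

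**Figure D4:**
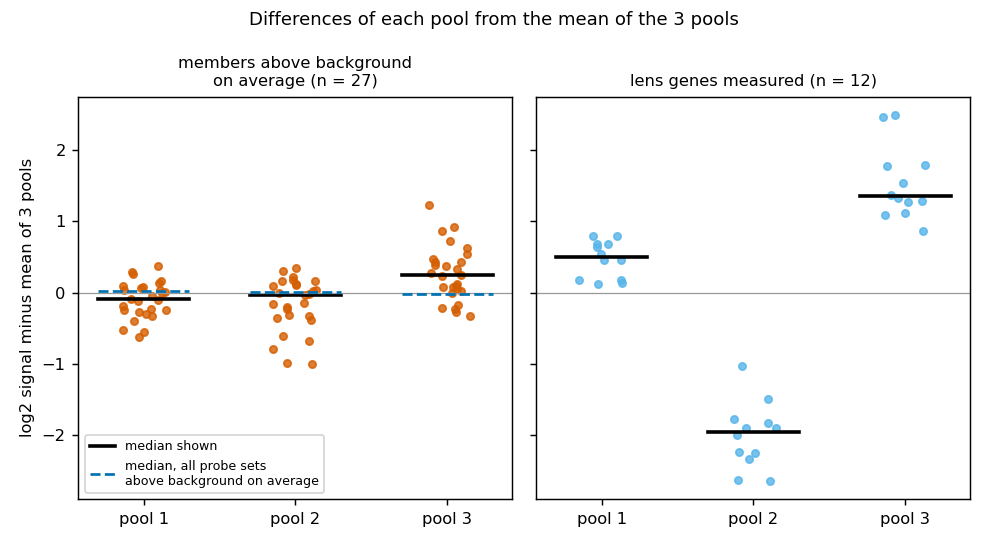
Log2 signal minus the mean of the 3 pools (y axis) for the 27 member sets above background on average (left) and the brightest set of each of the 12 measured lens genes (right), by pool. Points are probe sets, black bars medians, and blue dashes the median of all sets above background on average. The member median is 0.25 in pool 3 and close to 0 in pools 1 and 2, and the lens medians are 0.50, -1.96 and 1.35.

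Some members did not have their highest signal in pool 3. Pool 2 was highest for 6 of the 27, among them both Itgb1 sets, Mmp14 and Adam9, and pool 1 for Lamc1 and Col17a1. Lowest in pool 3 were Col1a2, Lamc1, Col17a1, Adam9 and Adam5. By role, pool 3 was highest in 3 of 4 basement membrane sets, 2 of 3 fibrillar collagen sets, 4 of 5 sets of other collagens, and all 3 sets of fibronectin and fibulin. It was highest in 4 of 6 ADAM sets, 1 of 3 integrin beta sets and the Timp1 set.

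The spread between pools was slightly wider than that of all sets of like detection. In 7 of the 27 (25.9%) the pools differed by more than 1 log2 unit (2-fold), against 11.5% of all sets above background on average. These were the sets of Col4a2, Col4a1, Adam11, Itgb5 and Adam28 and the 2 of Fbln1. With signals on all 3 arrays above the limit, 4 of 18 did so, against 7.18%. Without pool 3 the range stayed over 1 log2 unit for 2 of the 7 sets, without pool 2 for 4 and without pool 1 for 6. The median SD of the 27 was 0.30 on the log2 scale and their median range 1.5-fold, against 0.26 and 1.42-fold for all. The 118 members not above background on average had a median range of 2.45-fold, against 2.35-fold for all such sets.

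**Figure D5:**
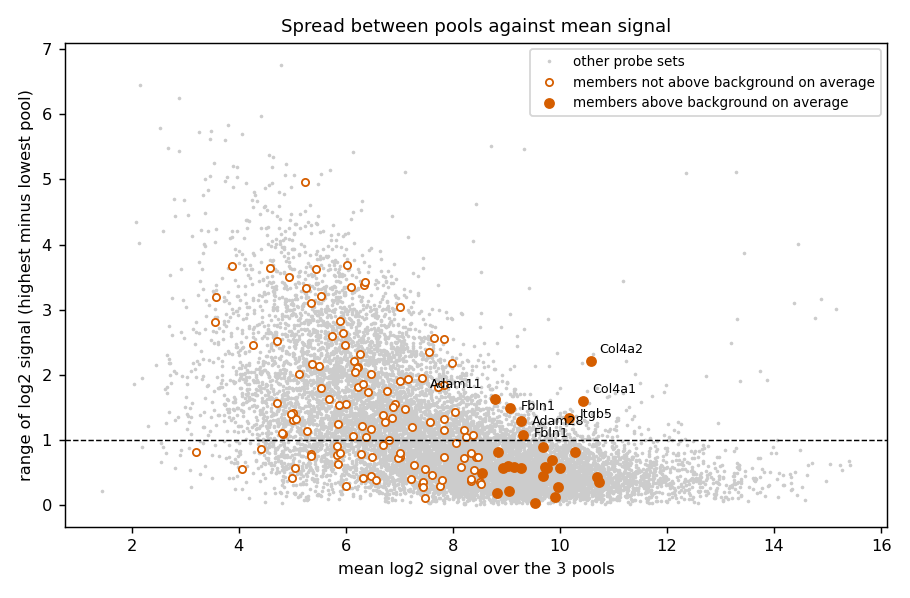
Range of log2 signal between the highest and lowest pool (y axis) against mean log2 signal (x axis) for all other probe sets (grey) and the 145 members (orange, filled where above background on average). The dashed line is a range of 1 log2 unit, and the 7 filled members above it are named. Wide ranges are common among dim sets, and Col4a2 and Col4a1 combine a wide range with a bright signal.

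Genes that assemble or bind this matrix but fall outside the families were measured for context. Of 56 such genes, 20 exceeded the limit throughout, 9 on some arrays and 27 on none. Among the 20 were Sparc, a collagen-binding protein of basement membranes, at 1390, 1283 and 1485 in pools 1, 2 and 3, and Agrn, the heparan sulphate proteoglycan agrin, at 1958, 1560 and 1587 on its brighter set. Ranges over 1 log2 unit, with all arrays above the limit, occurred in 3 of them. Serpinh1, the collagen chaperone HSP47, read 413.5, 542.0 and 998.4, and P4hb, a subunit of the collagen prolyl hydroxylase, read 2268, 1113 and 2471 on an _r_at set. Both of these sets were highest in pool 3. The plain P4hb set read 114.8, 186.9 and 84.3, above the limit on no array and lowest in pool 3. Dag1, the laminin receptor dystroglycan, read 1258, 527.2 and 859.8 on its brighter set and was highest in pool 1. The other Dag1 set read 233.1, 351.9 and 281.8, above the limit on no array and highest in pool 2. Cd44, Tnc, Vcan and Dcn were on no array.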

How the data were processed

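The authors deposited 1 linear intensity per probe set and array (12488 probe sets, 66 of them controls left out here), and the steps and software behind these values are not given in the sources used here. Means trimmed by 2% at each end were 500.3, 500.2 and 500.3, so the deposited intensities were used unchanged, with values under 1 set to 1 before log2. Genes were named by an old GEO platform annotation, updated through Entrez numbers from a RefSeq table for 10817 of 10833 singly named probe sets, while 396 carried several symbols and 1193 none. The pools are numbered in accession order.

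Probe sets are compared with the background limit and not with each other. A range is highest over lowest pool, and where the lowest pool is under its limit, the highest signal over that limit is given as "at least". All values are descriptions, because 1 group of 3 samples allows no test between groups. The labels do not say whether pools shared animals, so the SD may be partly technical, and the number of arrays limits the precision.

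Named genes were those above background on all arrays, those with a range over 1 log2 unit or with several probe sets, the first dim members of each role, and listed markers. Complete lists of dim members and partner chains were added after their values were seen. The members and lists were chosen with earlier results of these data known. Astrocyte genes summed to 645.8, 588.0 and 613.3 in pools 1, 2 and 3, cornea genes to 850.8, 824.0 and 834.1, red blood cell genes to 21740, 4512 and 14756, and rod genes to 78119, 83449 and 121687. Alternatives were other limits, scalings, floors and probe set choices, and each pool left out. The calculations were tested on simulated data.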

Additional observations from a re-analysis of the deposited data

How the results depend on the processing

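The counts depend chiefly on the background limit. At the 75th percentile of the other-tissue sets, 50 members were above background on all arrays (34.5%, against 52.9% of all sets), 26 had a range over 1 log2 unit (38.2%, against 22.2%), 35 were highest in pool 3 (51.5%, against 32.5%) and 20 lowest in pool 2 (29.4%, against 32.0%, so no longer above the share of all sets). With the limit taken from plain _at sets only, chosen after seeing the data, 33 members were above background on all arrays (22.8%, against 40.0%) and 14 had a range over 1 log2 unit (31.1%, against 14.7%), against 18 and 7 as reported. These plain-set limits were 246.8, 242.5 and 296.7 on arrays 1, 2 and 3, so the call was then hardest to reach in pool 3. Under them the sets of Col1a1, Col9a2, Fbln1, Lamc1 and Adam10 reported as below the limit in pool 2 were above it on all arrays. The brightest Timp2 set was so too, while Adam11 stayed below the limit in pool 2. Col6a2 and Col17a1, reported as above the limit only in pool 1, were then above it on all 3 arrays, and Col7a1 on 2. At the 95th percentile 15 were above background on all arrays. The share of members stayed below that of all sets under these limits. Leaving out each pool in turn gave 18 to 27 members above background on the remaining arrays, 2 to 6 with a range over 1 log2 unit, 19 to 30 highest in pool 3, 14 to 19 lowest in pool 2, and a median pool 3 difference of 0.16 to 0.17. With 2 pools, ranges are smaller by construction and more sets are highest or lowest in a given pool. Without pool 2 the Itgb5, Adam11 and plain Fbln1 ranges were 0.29, 0.25 and 0.33 on the log2 scale. Rescaling the arrays by median or quantiles, a floor of 20, plain sets alone and 1 set per gene left the counts within 1.5 times of those reported, and all 21 ranges recomputed under the rescalings and the floor stayed over 1 log2 unit. No paired analysis was possible because all samples form 1 group. Signals below the limit limit what can be said of 98 of the 145 members.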
